A study of Mus musculus with 4 samples.

Results

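The 49 genes of mouse whose symbols begin with Psm, one of the letters a to g, and a digit were described in CD4 T cells sorted as CCR7loCD137hi or CCR7hiCD137lo. They were taken by symbol from 23284 gene symbols, leaving out any that contain -ps, with no measured value used and no symbol repeated. By the names of their products they comprised 5 immunoproteasome genes (Psmb8, Psmb9, Psmb10, Psme1 and Psme2), 7 constitutive alpha and 7 constitutive beta genes of the core particle, 6 ATPase and 11 non-ATPase genes of the regulatory particle, 3 genes of other activators or inhibitors, 7 genes of assembly chaperones, 2 genes of core subunits restricted to other tissues (Psma8 and Psmb11), and Psmc3ip. Psmc3ip entered by its letters, and encodes a partner of meiotic recombination proteins and no proteasome subunit.

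The libraries were 2 of CCR7loCD137hi and 2 of CCR7hiCD137lo cells. All came from BALB/c mice, an inbred strain, as splenic CD4 T cells grown in Th1 culture with interleukin-2 at 15 ng/ml and interleukin-12 at 10 ng/ml and then separated on a flow cytometric sorter. The time in culture is 4 days in one label field and 5 days in another. The study concerned acetyl-CoA carboxylase 1 and the memory capacity of CD4 T cells, and this comparison asked how the sorted populations differ in expression. Libraries are numbered 1 and 2 in each population, and no label ties them to separate mice or cultures, so the p-values reflect the spread among these libraries alone, which may be technical. Levels are FPKM, in which fragment counts are divided by transcript length and library size. A fold change is the difference in log2(FPKM + 1), CCR7loCD137hi minus CCR7hiCD137lo, which slightly understates changes of low genes.

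The proteasome degrades proteins that carry ubiquitin chains. Its core particle is a stack of rings of alpha and beta subunits, and the beta5, beta1 and beta2 subunits carry the active sites. The regulatory particle binds the chain, removes it and threads the protein into the core with a ring of ATPases. Lymphocytes, and other cells exposed to interferon-gamma, replace the 3 catalytic beta subunits with the immunosubunits LMP7 (Psmb8), LMP2 (Psmb9) and MECL-1 (Psmb10), and add the activator PA28, built from the products of Psme1 and Psme2. Immunoproteasomes are known for making peptides that fit MHC class I molecules.

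The libraries followed their labels at the genes used for sorting. Ccr7 was at 39.6 and 38.2 FPKM in CCR7loCD137hi and 93.4 and 118.4 FPKM in CCR7hiCD137lo, and Tnfrsf9, which encodes CD137, at 158.2 and 183.8 FPKM in CCR7loCD137hi and 0.961 and 6.25 FPKM in CCR7hiCD137lo. All 7 CD4 T cell markers stood at 1 FPKM or more in every library, with sums from 1026 to 1284 FPKM. The 6 B cell markers summed to 5.23 and 0.571 FPKM in CCR7loCD137hi and 0.0917 and 0.145 FPKM in CCR7hiCD137lo. The 9 myeloid and dendritic markers summed to 8.30 and 7.20 against 1.68 and 0.727 FPKM, with Csf1r and Flt3 at 0 throughout. Fcer1g and Cd68 together gave most of each sum. Fcer1g was at 5.669 and 3.484 against 0.107 and 0 FPKM, and Cd68 at 2.345 and 3.143 against 1.505 and 0.668 FPKM. The 6 CD8 T and NK cell markers summed to 49.5 and 38.9 FPKM in CCR7loCD137hi and 12.7 and 23.7 FPKM in CCR7hiCD137lo. Eomes alone gave most of each sum, at 26.5 and 28.5 FPKM in CCR7loCD137hi and 9.42 and 17.2 FPKM in CCR7hiCD137lo. Klrd1 was at 8.55 and 5.97 against 0.658 and 1.97 FPKM, and Cd8b1 at 8.48 and 3.78 against 2.63 and 4.56 FPKM. Cd8a was at 3.68 and 0.218 against 0 and 0.0265 FPKM, and Ncr1 at 1.91 and 0.251 against 0 and 0 FPKM. Klrb1c was at 0.389 and 0.130 against 0 and 0 FPKM. The 6 erythroid and platelet markers summed to 0.925 and 1.56 against 0.112 and 0.133 FPKM. B cells and myeloid cells also use immunoproteasomes, and the part of any such cells in the values was not tested. Estimated depth was 11500000 and 6240000 fragments in CCR7loCD137hi replicates 1 and 2 and 20400000 and 12900000 fragments in CCR7hiCD137lo replicates 1 and 2, so a transcript of 1 kb at 100 FPKM had a counting error of 2.94%, 4.00%, 2.21% and 2.79%, in that order. These errors cover counting only.

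No proteasome gene passed the test between the populations. Of the 47 members with a mean of at least 1 FPKM, limma called 0 in either direction, over a background of 0.0572% of the 10496 genes tested, and 0 had an unadjusted p under 0.05, over backgrounds of 4.64% higher, 3.49% lower and 8.13% in either direction. The median log2 fold change was −0.04 over the members and −0.01 over all genes tested, and the members ran from −0.40 to 0.26. Fold changes were below 0 for 32 members and above 0 for 15, where 52.1% and 47.9% of all genes were. The lowest adjusted p of any member in limma's test was 0.624, for Psmb9. Both CCR7loCD137hi libraries lay below both CCR7hiCD137lo libraries for 4 of the 47 members, over a background of 21.5%, and above them for 3 of the 47, over a background of 16.6%. Together the 46 tested proteasome genes summed to 5229 and 4279 FPKM in CCR7loCD137hi and 5151 and 4671 FPKM in CCR7hiCD137lo, which overlapped. In a sorted bulk sample, fewer cells of a type and less RNA per cell cannot be told apart.

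**Figure D1:**
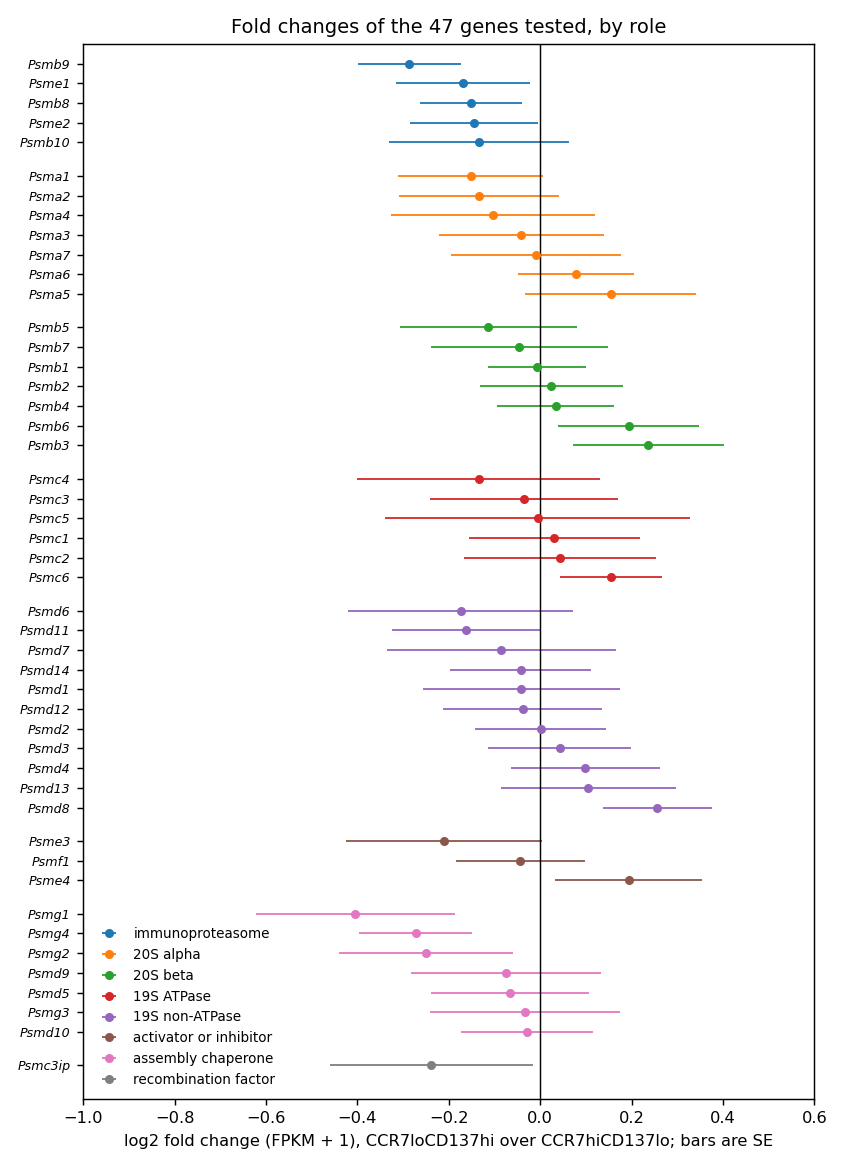
Log2 fold change of the 47 genes tested (x axis, log2 of FPKM + 1, CCR7loCD137hi over CCR7hiCD137lo) with its standard error as a bar, grouped by role down the page. The 5 immunoproteasome genes and the 7 assembly chaperone genes all lie left of 0, none of them past the test, the classes of core and regulatory particle subunits and of other activators lie on both sides of 0, and Psmc3ip lies to the left.

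The immunoproteasome genes had mean levels in CCR7loCD137hi below those in CCR7hiCD137lo, with none past the test. All 5 had a log2 fold change below 0 (median −0.15), against the 52.1% of all genes given above. All 5 were also below 0 under each of the 3 other scalings between libraries. There the share of all genes below 0 was not counted, and the median over all genes ran from −0.0635 to 0.0029. The FPKM of the 5 genes summed to 1180 and 1083 in CCR7loCD137hi and to 1313 and 1259 in CCR7hiCD137lo, which did not overlap. Psmb8 and Psmb9 held most of these sums and also did not overlap singly, while Psmb10, Psme1 and Psme2 each overlapped. No background was taken for such sums. The share of summed FPKM that the 5 genes held, short RNA genes left out, was 0.291% and 0.269% in CCR7loCD137hi and 0.344% and 0.319% in CCR7hiCD137lo. Without CCR7loCD137hi replicate 2 the median was −0.07, and without CCR7hiCD137lo replicate 1 it was −0.09, each with 4 of 5 genes below 0.

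Psmb9 encodes LMP2, the immunosubunit that takes the place of the beta1 subunit, whose gene is Psmb6. Psmb9 (mm10 chromosome 17, 34182099 to 34187330, minus strand) was at 247.4 and 262.3 FPKM in CCR7loCD137hi and at 300.6 and 321.7 FPKM in CCR7hiCD137lo. Both CCR7loCD137hi libraries were below both CCR7hiCD137lo libraries. Its log2 fold change was −0.29 (SE 0.11, 95% interval −0.59 to 0.01), with an adjusted p of 0.624 in limma. Across the other settings that kept all libraries its adjusted p in limma ran from 0.149 to 0.706. The GENCODE exons of Psmb9 share 212 nt with Tap1 on the opposite strand, but the locus the authors give for Psmb9 ends before that of Tap1 begins. Psmb6 (chromosome 11, 70525357 to 70527858) had the opposite sign, at 113.9 and 97.6 FPKM in CCR7loCD137hi and 100.3 and 84.5 FPKM in CCR7hiCD137lo. Its populations overlapped, and the fold change was 0.19 (SE 0.15, limma adjusted p = 0.798).

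Psmb8 encodes LMP7, which replaces the beta5 subunit, the product of Psmb5. Psmb8 (chromosome 17, 34198195 to 34201454, plus strand), the member with the highest level, was at 496 and 452.6 FPKM in CCR7loCD137hi and at 531.9 and 520.4 FPKM in CCR7hiCD137lo. The populations did not overlap, and the gap between the nearest libraries was smaller than the distance between the CCR7loCD137hi libraries. Its log2 fold change was −0.15 (SE 0.11, 95% interval −0.45 to 0.15, limma adjusted p = 0.776). Psmb5 (chromosome 14, 54614120 to 54617995) was at 109.4 and 80.3 FPKM in CCR7loCD137hi and 108.6 and 94.8 FPKM in CCR7hiCD137lo, which overlapped (log2 fold change −0.11, SE 0.19).

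The stretches of promoter before the starts of these 4 genes are shown because the immunosubunits and the subunits they replace are set against each other here. They come from RefSeq on GRCm38.p6, run 5′ to 3′ along the gene's strand, and end 1 base before the start in RefSeq's promoter table, which is also the start in the deposited tables for these 4 genes. RefSeq's gene record of Psmb6 begins further upstream, within the stretch shown. Capitals mark a match to TGANNNNGC, the core bound by the factors NRF1 (Nfe2l1) and NRF2 (Nfe2l2), in Psmb9, Psmb6 and Psmb5, and a match to TTCNNNGAA, the palindromic form of the gamma-activated site, in Psmb8. The stretch of Psmb9 (chr17:34187331-34187555, minus strand) is the whole interval between its start and that of Tap1, a peptide transporter gene read in the opposite direction. The others are Psmb6 (chr11:70525257-70525356, plus strand), Psmb8 (chr17:34198065-34198194, plus strand) and Psmb5 (chr14:54617996-54618095, minus strand).
Psmb9: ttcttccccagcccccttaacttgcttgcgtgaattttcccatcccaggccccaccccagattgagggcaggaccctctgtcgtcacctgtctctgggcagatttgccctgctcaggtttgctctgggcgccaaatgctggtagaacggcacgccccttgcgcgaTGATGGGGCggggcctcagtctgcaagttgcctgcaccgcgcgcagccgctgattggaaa
Psmb6: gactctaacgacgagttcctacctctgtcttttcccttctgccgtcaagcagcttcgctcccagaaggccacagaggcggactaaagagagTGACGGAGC
Psmb8: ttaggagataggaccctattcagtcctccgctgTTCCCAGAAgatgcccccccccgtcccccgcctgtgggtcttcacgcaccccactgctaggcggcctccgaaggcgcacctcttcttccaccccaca
Psmb5: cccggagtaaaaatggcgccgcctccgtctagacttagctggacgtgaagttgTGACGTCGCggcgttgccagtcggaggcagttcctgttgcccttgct

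Both motifs were searched on both strands in windows from 250 bases before to 50 bases after each start, which RefSeq gave for 41 of the 49 members and not for Psma8, Psmb1, Psmb2, Psmb7, Psmc3, Psmd3, Psmd7 and Psmg2. TGANNNNGC was found in 24 of the 41, and in 45% of the 27025 genes with such a window. TTCNNNGAA was found in 3 of the 41, Psmb8, Psmd2 and Psmg1, and in 9.55% of all genes. The windows of Psmb8, Psmb9 and Psme2 held TGANNNNGC, that of Psmb8 after the start and so outside the stretch shown. A match is a run of letters and is no shown binding site.

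Psmb10 encodes MECL-1, which replaces the beta2 subunit encoded by Psmb7. Psmb10 (chromosome 8, 105935728 to 105938392) was at 69.9 and 55.1 FPKM in CCR7loCD137hi and at 77.3 and 60.2 FPKM in CCR7hiCD137lo. The populations overlapped, and the libraries numbered 2 were the lower of each (log2 fold change −0.13, SE 0.20). Its fold change was above 0 without CCR7loCD137hi replicate 2 (0.04) or without CCR7hiCD137lo replicate 1 (0.04). Psmb7, whose exons share 405 nt with Nek6 on the opposite strand, was at 142.6 and 104.3 FPKM in CCR7loCD137hi and 134.6 and 117.8 FPKM in CCR7hiCD137lo, also overlapping (−0.05, SE 0.19). Among the 3 catalytic pairs, Psmb10 was thus the single immunosubunit below its counterpart in every library.

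**Figure D2:**
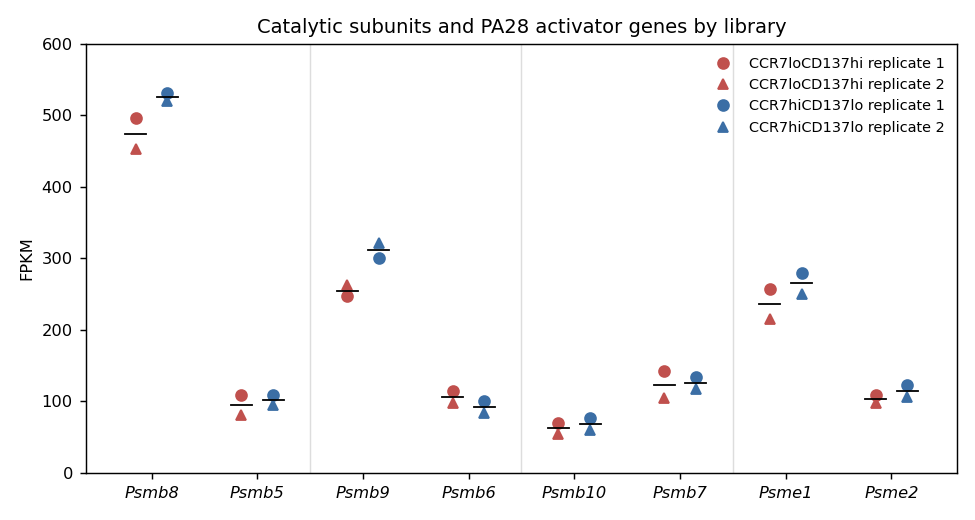
FPKM (y axis, linear) of the 6 catalytic subunit genes, each immunosubunit beside the constitutive subunit it replaces, and of the PA28 genes, in the 4 libraries; horizontal bars are group means of 2 libraries. Psmb8 and Psmb9 sit above their counterparts in all libraries, and their CCR7loCD137hi points (452.6 to 496 and 247.4 to 262.3 FPKM) lie under their CCR7hiCD137lo points.

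A ratio of both genes of a pair within one library does not depend on a factor that scales the whole library. Quantile normalization is no such factor, and the shares were not computed under it. The share held by Psmb9 of the summed FPKM of Psmb9 and Psmb6 was 68.5% and 72.9% in CCR7loCD137hi and 75.0% and 79.2% in CCR7hiCD137lo. The populations did not overlap, at 70.7% ± 3.12 in CCR7loCD137hi and 77.1% ± 2.99 in CCR7hiCD137lo (SD, n = 2 each), a difference of −6.42 percentage points. The share of Psmb8 with Psmb5 was 81.9% and 84.9% in CCR7loCD137hi and 83.0% and 84.6% in CCR7hiCD137lo, and that of Psmb10 with Psmb7 was 32.9% and 34.6% against 36.5% and 33.8%. Both of these overlapped. The 3 immunosubunits together held 69.0% and 73.2% of the FPKM of all 6 catalytic genes in CCR7loCD137hi and 72.6% and 75.2% in CCR7hiCD137lo, which overlapped too. With 2 libraries a population the smallest two-sided exact permutation p is 0.333, so no p is given for these shares. How many pairs among all genes lie apart in such a share was not counted, so there is no background for it.

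**Figure D3:**
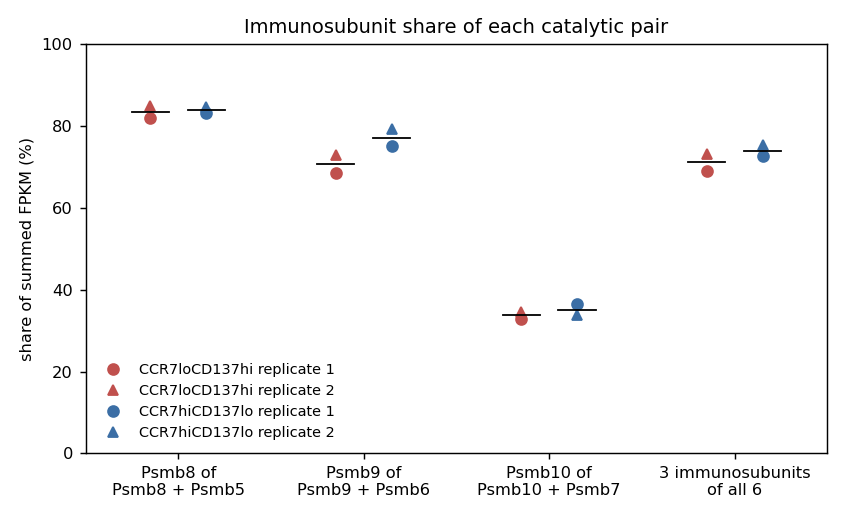
Share (y axis, percent of summed FPKM) of each immunosubunit gene in the sum with its constitutive counterpart, and of the 3 immunosubunits in the sum of all 6, in the 4 libraries; horizontal bars are group means. The CCR7loCD137hi points lie under the CCR7hiCD137lo points without overlap for Psmb9 (68.5% and 72.9% against 75.0% and 79.2%), and overlap them in the other columns.

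Psme1 and Psme2 encode PA28alpha and PA28beta, whose ring opens the gate of the core without ATP. Psme1 (chromosome 14, 55578494 to 55581527) was at 257.9 and 214.6 FPKM in CCR7loCD137hi and at 279.4 and 250.7 FPKM in CCR7hiCD137lo, with overlap (log2 fold change −0.17, SE 0.15, limma adjusted p = 0.810). The fold change of Psme1 was −0.04 without CCR7loCD137hi replicate 2 and −0.30 without CCR7loCD137hi replicate 1. Psme2, which lies close by (chromosome 14, 55587440 to 55591101), was at 109.2 and 98.0 FPKM in CCR7loCD137hi and 123.6 and 106.0 FPKM in CCR7hiCD137lo, also with overlap (−0.14, SE 0.14). The ratio of Psme1 to Psme2 was 2.36 and 2.19 in CCR7loCD137hi and 2.26 and 2.36 in CCR7hiCD137lo. The mouse genome holds a retrotransposed copy, Psme2b, with which reads of Psme2 could be shared, so the level of Psme2 is uncertain. Divided by the mean FPKM of the 14 constitutive core genes of the same library, a measure chosen after the values were seen, Psme1 was at 1.66 and 1.69 in CCR7loCD137hi and 1.87 and 1.90 in CCR7hiCD137lo. For Psme2 the higher of the CCR7loCD137hi libraries was at 0.774, and the CCR7hiCD137lo libraries were at 0.828 and 0.803. Neither overlapped, nor did Psmb10, at 0.449 and 0.435 in CCR7loCD137hi and 0.517 and 0.456 in CCR7hiCD137lo. Psmb8 and Psmb9 did overlap on this measure, and on FPKM itself the reverse held for each of these genes. How many of all genes lie apart on this measure was not counted, so there is no background for it.

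The 7 constitutive alpha genes, whose products form the outer rings and the gate, had log2 fold changes on both sides of 0, with 5 below and 2 above and a median of −0.04, or 4 below when libraries were scaled to the median ratio. Psma7, the one with the highest level, was at 248.5 and 192.3 FPKM in CCR7loCD137hi and 242.4 and 199.6 FPKM in CCR7hiCD137lo (log2 fold change −0.01, SE 0.19). Psma1 was at the low end, at 150.2 and 121.4 FPKM in CCR7loCD137hi and 159.8 and 141.2 FPKM in CCR7hiCD137lo (−0.15, SE 0.16). Psma5 was at the high end, at 74.4 and 55.5 FPKM in CCR7loCD137hi and 61.5 and 54.1 FPKM in CCR7hiCD137lo (0.15, SE 0.19). Psma2, Psma3, Psma4 and Psma6 lay between −0.13 and 0.08, and the populations overlapped for all 7. Their summed FPKM was 1009 and 794.8 in CCR7loCD137hi and 994 and 855.5 in CCR7hiCD137lo, a wider gap between replicate numbers than between populations.

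The 7 constitutive beta genes, which include the catalytic ones given above, had 4 log2 fold changes above 0 and 3 below (median 0.02), but 2 above and 5 below (median −0.03) when libraries were scaled to equal sums. Psmb2, a noncatalytic beta subunit with the highest level of them, was at 271 and 217.5 FPKM in CCR7loCD137hi and 251.4 and 226.7 FPKM in CCR7hiCD137lo (0.02, SE 0.16). Psmb3, which encodes the noncatalytic beta3 subunit, was at 125 and 96.5 FPKM in CCR7loCD137hi and 95.7 and 90.7 FPKM in CCR7hiCD137lo. Its populations did not overlap, by a margin of less than the distance between the CCR7hiCD137lo libraries (log2 fold change 0.24, SE 0.17, limma adjusted p = 0.769). Psmb1 and Psmb4 had fold changes of −0.01 and 0.03. As a class, these genes summed to 1173 and 978 FPKM in CCR7loCD137hi and 1096 and 992.8 FPKM in CCR7hiCD137lo.

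The 6 ATPase genes of the regulatory particle, whose products unfold the substrate, were split with 3 log2 fold changes above 0 and 3 below (median 0.01), and with 1 above and 5 below (median −0.05) under equal sums. Psmc6 was at 89.7 and 93.3 FPKM in CCR7loCD137hi and at 83.5 and 80.7 FPKM in CCR7hiCD137lo. Its populations did not overlap, and it was the ATPase gene with the smallest standard error (log2 fold change 0.15, SE 0.11, limma adjusted p = 0.771). Psmc4, which had the highest mean level of the class, was at 118.1 and 72.6 FPKM in CCR7loCD137hi and 110.3 and 94.0 FPKM in CCR7hiCD137lo (−0.14, SE 0.27). Psmc5 had the largest standard error, 0.33, at 117.2 and 64.9 FPKM in CCR7loCD137hi and 102.1 and 75.1 FPKM in CCR7hiCD137lo, and a fold change of −0.01. Psmc1, Psmc2 and Psmc3 lay between −0.04 and 0.04, and all 3 overlapped. The class summed to 604.2 and 435.8 FPKM in CCR7loCD137hi and to 555.3 and 467.8 FPKM in CCR7hiCD137lo, with the lowest and the highest sum both in CCR7loCD137hi.

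Among the 11 non-ATPase genes of the regulatory particle, which include ubiquitin receptors, scaffold subunits and the deubiquitinase gene Psmd14, 6 had log2 fold changes below 0 and 5 above (median −0.04), or 8 and 3 under equal sums. Psmd8 (chromosome 7, 29174187 to 29180673), which encodes a lid subunit, was at 112.1 and 109.8 FPKM in CCR7loCD137hi and at 88.2 and 97.5 FPKM in CCR7hiCD137lo. Its populations did not overlap, and its fold change of 0.26 (SE 0.12, 95% interval −0.06 to 0.57, limma adjusted p = 0.686) was the highest among the members with all libraries in the fit, and it did not pass. Psmd6, another lid subunit gene, was at the low end with 82.7 and 53.3 FPKM in CCR7loCD137hi and 81.5 and 69.3 FPKM in CCR7hiCD137lo (−0.17, SE 0.25). Psmd4, which encodes a ubiquitin receptor, had a fold change of 0.10 (SE 0.16), Psmd14 one of −0.04 (SE 0.15), and Psmd2 one of 0.00 (SE 0.14). The remaining non-ATPase genes lay between −0.16 (Psmd11) and 0.11 (Psmd13), and Psmd8 alone among the 11 did not overlap.

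Of the other activators and the inhibitor, 2 had log2 fold changes below 0 and 1 above, and none passed. Psme3, which encodes the nuclear activator PA28gamma, was at 90.3 and 62.3 FPKM in CCR7loCD137hi and 92.1 and 82.2 FPKM in CCR7hiCD137lo (log2 fold change −0.21, SE 0.21). Psme4, which encodes the activator PA200, was at 15.3 and 17.4 FPKM in CCR7loCD137hi and 12.8 and 15.6 FPKM in CCR7hiCD137lo (0.19, SE 0.16). Psmf1, which encodes the inhibitor PI31, had a fold change of −0.04 (SE 0.14). Each of the 3 overlapped between the populations.

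The genes of assembly chaperones, which bring the rings together and are no part of the finished particle, had log2 fold changes below 0 in 7 of 7 cases under all 4 scalings, with a median of −0.08 and none past the test. Psmg1 (chromosome 16, 95979935 to 95990903), whose product pairs with that of Psmg2 to assemble the alpha ring, was at 32.3 and 25.5 FPKM in CCR7loCD137hi and at 44.9 and 32.6 FPKM in CCR7hiCD137lo. The populations lay apart by 0.35 FPKM, and the fold change of −0.40 (SE 0.22, 95% interval −0.98 to 0.17, limma adjusted p = 0.718) was the lowest among the members with all libraries in the fit. Without CCR7hiCD137lo replicate 1 it was −0.18, above that of Psmb9 (−0.34), and without CCR7hiCD137lo replicate 2 it was −0.63. Psmg2 was at 36.1 and 28.3 FPKM in CCR7loCD137hi and 42.5 and 34.3 FPKM in CCR7hiCD137lo, with overlap (−0.25, SE 0.19). Psmg4 (chromosome 13, 34162977 to 34178172), which pairs with the product of Psmg3, was at 43.7 and 40.6 FPKM in CCR7loCD137hi and 53.3 and 49.0 FPKM in CCR7hiCD137lo, without overlap (−0.27, SE 0.12, limma adjusted p = 0.680). Psmg3 itself had a fold change of −0.03, and Psmd5, Psmd9 and Psmd10, chaperones of the ATPase ring, lay between −0.08 and −0.03. Leaving out a library gave 4 to 6 of 7 genes below 0, with 4 without CCR7loCD137hi replicate 2 and 5 without CCR7hiCD137lo replicate 1.

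Psma8, a testis alpha subunit gene, was at 0 and 0.318 FPKM in CCR7loCD137hi and 0 and 0.257 FPKM in CCR7hiCD137lo, and Psmb11, the beta subunit gene of the thymus cortex, at 0.0635 and 0 FPKM against 0.0139 and 0 FPKM. Neither passed the minimum level, and nearly all of these values lay under the level that 3 fragments on 1 kb give (0.260, 0.481, 0.147 and 0.233 FPKM in CCR7loCD137hi replicates 1 and 2 and CCR7hiCD137lo replicates 1 and 2). Psmc3ip was at 14.3 and 9.46 FPKM in CCR7loCD137hi and 14.4 and 13.5 FPKM in CCR7hiCD137lo (log2 fold change −0.24, SE 0.22).

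Most members also differed by replicate number, in the same direction in both populations. In both populations the library numbered 2 was below the library numbered 1 for 41 of the 47 members tested, where 29.4% of all genes tested showed this, and it was above it for 3. Over the 41 constitutive genes and chaperones the median log2 difference, number 2 minus number 1, was −0.35 in CCR7loCD137hi and −0.17 in CCR7hiCD137lo, where all genes tested had 0.03 and 0.08. For the immunoproteasome genes the medians were −0.15 in CCR7loCD137hi and −0.16 in CCR7hiCD137lo, and Psmb9 was the exception, higher in number 2 in both. CCR7loCD137hi replicate 2 was also the shallowest library, and its part in these values was not tested. For the constitutive genes, whose median fold change was −0.03, leaving out single libraries gave medians from −0.20 without CCR7loCD137hi replicate 1 to 0.16 without CCR7loCD137hi replicate 2.

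**Figure D4:**
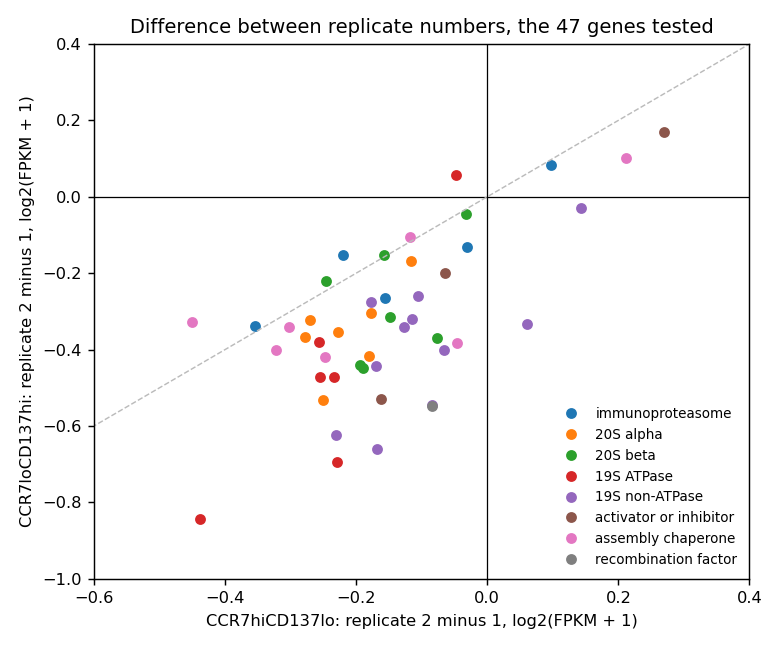
Difference between the libraries numbered 2 and 1 on the log2(FPKM + 1) scale for the 47 genes tested, in CCR7loCD137hi (y axis) and CCR7hiCD137lo (x axis), coloured by role; the dashed line marks equal differences. Most points (41 of 47) lie to the lower left of the zero lines, with lower values in the library numbered 2 in both populations, and Psmb9 lies in the upper right.

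Genes that act around the proteasome were read from 8 lists with 55 members tested, and none passed limma's test. At an unadjusted p under 0.05 there were 4 of 55 higher and 2 lower, where 4.64% and 3.49% of all genes tested were, and the median log2 fold change was −0.01 with 27 above 0 and 28 below. Among the ubiquitin genes, Ubb, a polyubiquitin gene, had a fold change of −0.07 (SE 0.11), and Rps27a, which encodes ubiquitin fused to a ribosomal protein, one of 0.07 (SE 0.10). Of the ubiquitin ligation genes, Uba1, the main activating enzyme, and Ube3a, a ligase, had fold changes of 0.02 (SE 0.16) and −0.24 (SE 0.13).

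Of the receptors, shuttles and associated factors, Sqstm1 had the largest fold change and Shfm1, a small lid subunit gene, the highest level. Sqstm1, which encodes the ubiquitin-binding autophagy receptor p62, was at 69.2 and 74.3 FPKM in CCR7loCD137hi and at 48.2 and 57.7 FPKM in CCR7hiCD137lo. The populations did not overlap, but the gene did not pass (log2 fold change 0.44, SE 0.14, limma adjusted p = 0.576). Shfm1 had a fold change of 0.09 (SE 0.10). Vcp, the ATPase that extracts proteins from complexes, and its cofactor gene Nsfl1c had fold changes of 0.08 (SE 0.19) and 0.12 (SE 0.25). Pomp, the maturation factor of the core, was at 232.4 and 188.2 FPKM in CCR7loCD137hi and 213.9 and 201.4 FPKM in CCR7hiCD137lo (0.01, SE 0.15). Nfe2l2, which encodes NRF2, was at 23.6 and 13.5 FPKM in CCR7loCD137hi and 24.0 and 24.1 FPKM in CCR7hiCD137lo (−0.41, SE 0.28), and its fold change was −0.03 without CCR7loCD137hi replicate 2. Lap3 and Nrd1, peptidase genes downstream of or beside the proteasome, had fold changes of 0.23 (SE 0.26) and −0.09 (SE 0.13).

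Genes of the interferon-gamma pathway, the known inducer of immunoproteasome genes, had fold changes in both directions, and none passed the test. Ifng was at 214.8 and 90.8 FPKM in CCR7loCD137hi and 15.3 and 27.8 FPKM in CCR7hiCD137lo (log2 fold change 2.70, SE 0.50, limma adjusted p = 0.368). Of the 8 genes, 3 (Ifng, Ifngr1 and Irf8) were higher and 2 (Jak2 and Nlrc5) lower at an unadjusted p under 0.05, where 4.64% and 3.49% of all genes tested were. Ifngr1, which encodes the ligand-binding receptor chain, was at 77.0 and 78.2 FPKM in CCR7loCD137hi and 33.1 and 39.5 FPKM in CCR7hiCD137lo (1.08, SE 0.14, limma adjusted p = 0.243). Nlrc5, a transactivator of class I genes, was at 26.0 and 26.1 FPKM in CCR7loCD137hi and 37.0 and 33.3 FPKM in CCR7hiCD137lo (−0.42, SE 0.13, limma adjusted p = 0.540). Irf1, an interferon-induced factor, had a fold change of −0.21 (SE 0.19) and its populations overlapped. Fold changes in this list were above 0 for 4 genes and below 0 for 4, and those of the immunoproteasome genes ran from −0.29 to −0.13. A link between the list and the immunoproteasome genes was not tested. Ifngr1, Irf8, Jak2, Nlrc5 and Irf1 were chosen for naming after their values were seen.

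In the list of class I peptide transport and loading, 5 of 9 genes had log2 fold changes below 0 and none passed. Tap1, which shares its promoter interval with Psmb9 and was also named after its values were seen, was at 90.1 and 99.9 FPKM in CCR7loCD137hi and 101.7 and 113.7 FPKM in CCR7hiCD137lo (−0.18, SE 0.13). The populations were apart, as they were for Psmb9, and the library numbered 2 was the higher of each population for both genes. B2m, the class I light chain, was at 1357 and 1373 FPKM in CCR7loCD137hi and 1526 and 1580 FPKM in CCR7hiCD137lo (−0.19, SE 0.10), and Erap1, a trimming peptidase of the endoplasmic reticulum, had the lowest fold change of the list (−0.52, SE 0.22, limma adjusted p = 0.656).

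**Figure D5:**
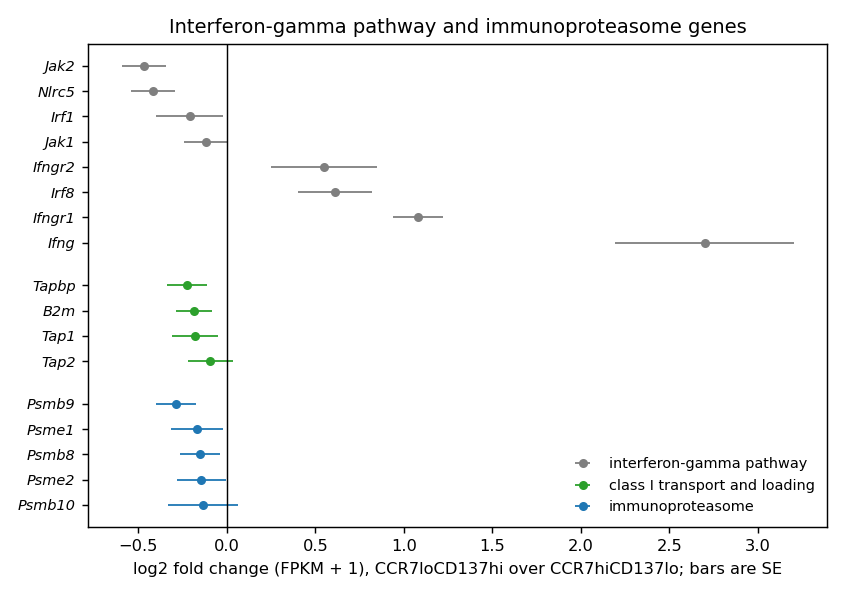
Log2 fold change (x axis, log2 of FPKM + 1, CCR7loCD137hi over CCR7hiCD137lo) with standard error bars for 8 interferon-gamma pathway genes, 4 class I transport and loading genes and the 5 immunoproteasome genes. Ifng (2.70) and Ifngr1 (1.08) lie far to the right, Jak2 (−0.47) and Nlrc5 (−0.42) to the left, and the immunoproteasome genes between −0.29 and −0.13, none past limma's test over all genes.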

How the data were processed

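Polyadenylated RNA from TRIzol extracts was sequenced in 4 libraries with a stranded TruSeq kit, per the labels' protocols. The authors deposited one table of FPKM values for each library, which per the file headers has the columns of Cufflinks. The submitters' processing notes name Cufflinks 2.0.2, TopHat 1.3.2 and Bowtie 0.12.8, and mm10 as the build, without their roles. The sources used here state no annotation, filter, scaling or use of strand. Whether reads of genes that overlap on opposite strands were kept apart is therefore not known. By GENCODE M21, exons of Psma4, Psmb7, Psmb9, Psmc3, Psmc3ip, Psmd1 and Psmd13 share bases with another coding gene in the tables. Those of Psmb5 share 109 of 899 nt with Mir686, a microRNA gene on the same strand that is also in the tables.

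Each table held 23746 entries for 23284 symbols, and a repeated symbol was taken from its entry of highest mean FPKM. Printed starts are 1 above the deposited ones. Genes of at least 1 FPKM on average were tested with limma 3.58.1 (R 4.3.3) on log2 of FPKM plus 1, two-sided, with a variance trend, all libraries in one fit, Benjamini-Hochberg adjustment over 10496 genes and a threshold of 0.05. There were 2 residual and 2.54 prior degrees of freedom. The script was tested on simulated data, in which every change was far larger than those of the members. That test therefore does not show whether changes of their size would be called. Depth, not stated, was estimated from values under 0.3 FPKM: between 74.2% and 75.4% of their ratios to CCR7hiCD137lo replicate 1 came within 0.002 (natural log) of whole-fragment ratios, against 2.67% to 3.08% by chance. Its absolute size assumes fragments of 200 nt. No 2 libraries shared a value above 0 in any gene.

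Alternatives were a pseudocount of 0.1 or 5, no filter or a mean of 5 FPKM, 3 other scalings, summed entries, no variance trend, the replicate block, and each library left out. The members, lists and motifs were chosen with earlier results of these data known, and the results of some listed genes are not reported here. Genes named are the immunoproteasome genes and their counterparts; the most expressed, highest and lowest of each class by fold change; members below the filter; and the most expressed and most changed of each list. Others named are Psmb1, Psmb4, Psmc5, Psmd2, Psmd4, Psmd14, Psmg2, Psmg3, Psmd5 and Psmd9, with the members given by range, chosen after their values were seen, and those so described beside their values. Plots and tables were made in matplotlib 3.10.9, pandas 2.3.3, numpy 2.4.6 and Python 3.11.15.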

Additional observations from a re-analysis of the deposited data

How the results depend on the processing

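No member and no gene of the lists passed limma's test under other pseudocounts, filters or scalings, no variance trend or the replicate block. Summed entries of a symbol were tried for the members alone, and none passed. Leaving out a library leaves a single library in a population, so those fits are read for the members and lists by effect size alone. The immunoproteasome median ran from −0.219 to −0.134 under the alternatives that kept all libraries and from −0.247 to −0.068 with one left out. The constitutive median ran from −0.093 to −0.018 and from −0.204 to 0.162. The difference in share of Psmb9 with Psmb6 ran from −8.62 to −4.21 percentage points with one library left out, that of Psmb10 with Psmb7 from −2.74 to −0.083, that of Psmb8 with Psmb5 from −1.88 to 1.12, and that of the 3 immunosubunits together from −4.94 to −0.728. The difference of Psmb8 was above 0 without CCR7loCD137hi replicate 1 (1.12) or without CCR7hiCD137lo replicate 2 (0.389).

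Over all genes, the 6 calls became 1 with no filter, 2 with quantile normalization, 2 without variance trend and 12 to 30 with one library left out (12 without CCR7loCD137hi replicate 1, 30 without CCR7loCD137hi replicate 2, 17 without CCR7hiCD137lo replicate 1 and 23 without CCR7hiCD137lo replicate 2). With the replicate block there were 42 calls, 21.7% of all genes had an unadjusted p under 0.05, and of the members Psmd8 was higher and Psmb9, Psmg1, Psmg2 and Psmg4 lower at that level, with 0.134 as the lowest adjusted p of a member. Whether the numbers pair the libraries is not stated, and the differences between numbers correlated across 10496 genes, which are not independent, at r = 0.214. With each number present in both populations, the block cannot change the mean difference in a share. Within number 1 and within number 2 the difference in share was −6.51 and −6.32 points for Psmb9 and −3.58 and 0.753 for Psmb10. It was −1.11 and 0.342 for Psmb8, and −3.62 and −2.05 for the 3 immunosubunits together.

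Of 37 named genes, 17 changed the sign of their fold change in 31 of 481 comparisons, and the cause was not tested. The 481 include the other filters, the fit without variance trend and the replicate block, which cannot change a fold change here. Median-ratio scaling gave Psma7 0.008. Equal sums gave Psmb2 −0.034, Pomp −0.047 and Uba1 −0.043, and quantile normalization gave Pomp −0.044, Rps27a −0.042 and Uba1 −0.044. With one library left out, fold changes ran from −0.042 to 0.497 for Lap3, −0.138 to 0.376 for Nsfl1c, −0.140 to 0.162 for Pomp, −0.055 to 0.362 for Psma5, −0.193 to 0.175 for Psma7, −0.311 to 0.043 for Psmb10, −0.134 to 0.182 for Psmb2, −0.334 to 0.107 for Psmb5, −0.270 to 0.178 for Psmb7, −0.482 to 0.212 for Psmc4, −0.134 to 0.077 for Psmd10, −0.486 to 0.137 for Psmd6, −0.475 to 0.053 for Psme3, −0.154 to 0.184 for Uba1, −0.143 to 0.009 for Ubb and −0.145 to 0.302 for Vcp. In the same settings 11 genes kept their sign and moved by over 1.5 times, from −0.756 to −0.282 for Erap1, −0.785 to −0.026 for Nfe2l2, −0.177 to −0.011 for Nrd1, 0.051 to 0.421 for Psmb3, 0.071 to 0.317 for Psmb6, −0.217 to −0.085 for Psmb8, −0.302 to −0.037 for Psme1, −0.254 to −0.035 for Psme2, 0.058 to 0.328 for Psme4, −0.630 to −0.180 for Psmg1 and 0.049 to 0.099 for Rps27a, and Psma1 ran from −0.305 to 0. The standard errors of the members ran from 0.107 to 0.334, and the parts of depth and of the number of libraries in them were not tested.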
